A study of Mus musculus with 16 samples.

Results

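A set of 8 genes of the extrinsic death pathway was followed in cultured fibroblasts of mouse embryos, with and without inhibition of the proteasome. They were the receptor genes Tnfrsf10b, Fas, Tnfrsf1a and Tnfrsf12a, the caspase genes Casp8 and Casp12, and the inhibitor genes Cflar and Xiap. They were chosen by symbol: a probe set was taken where its single gene symbol was one of the 8, and of several probe sets for a gene the brightest on average was used. All 8 genes were found among the 19938 genes tested, on 10 probe sets, since Cflar had 3. The arrays came from 4 groups of 4 plates. Knockdown cells, which stably expressed a short hairpin RNA directed at Atf5 (a bZIP transcription factor), were kept for 8 h with 1 µM MG132, a peptide aldehyde that blocks the proteasome, or for 8 h with vehicle (DMSO). Wild-type cells with a scramble hairpin, here called control cells, were kept for 8 h with 1 µM MG132 or for 8 h with vehicle. Hairpin expression is thus common to all groups, and the sources used here do not give the promoter that drives it, the number of clones behind each line or the age of the embryos. A difference between the lines and an effect of the hairpin against Atf5 therefore cannot be told apart.

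Death receptors of the tumour necrosis factor family carry a death domain on the inside of the cell membrane. When a ligand binds, the domain gathers the adaptor FADD and procaspase-8, which becomes active and sets off the executioner caspases. CFLAR (c-FLIP), a relative of caspase-8 whose long form lacks protease activity, occupies places in this complex, and XIAP binds and blocks caspases further down. In fibroblasts the pathway can end in apoptosis, or, where caspase-8 is blocked, in necroptosis through RIPK3 and MLKL.

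All values below are log2 probe set intensities from the deposited table, and levels are compared only within a probe set. Differences are log2 fold changes with the standard error of a linear model over all genes (limma), n = 4 arrays per group, and a gene is called changed where its Benjamini-Hochberg adjusted p over all genes was below 0.05. Exact two-sided permutation tests of 4 against 4 arrays are given beside them, with 0.0286 as their lowest possible p, and the 32 of them over the members are unadjusted. Array medians lay between 7.71 and 7.82. The Atf5 probe set read lower in knockdown than in control cells, with differences of -0.31 ± 0.05 with MG132 and -0.22 ± 0.05 with vehicle (limma adjusted p = 0.000148 and 0.00321). Of 11 fibroblast markers, Vim had the highest group means (14.11 to 14.21) and Lum the lowest (4.69 to 4.85). With MG132 2 of the 11 rose and 5 fell in knockdown cells, and 1 rose and 6 fell in control cells, collagen genes among those that fell in both. Between the lines 5 were higher and 1 lower in knockdown cells with MG132, and 4 higher and 2 lower with vehicle. The log2 values of the 11 summed to 103.8 to 104.6 in knockdown MG132 arrays and 105.9 to 106.4 in knockdown vehicle arrays. They summed to 102.0 to 102.2 in control MG132 arrays and 104.5 to 104.8 in control vehicle arrays. These ranges overlapped only between knockdown MG132 and control vehicle arrays. Of 7 macrophage markers 1 with MG132 (Cd14) and 2 with vehicle (Cd68 and Cd14) were higher in knockdown than in control cells. The log2 values of the macrophage list summed to 48.0 to 48.5 in knockdown MG132 arrays and 46.9 to 47.9 in knockdown vehicle arrays, and to 46.8 to 47.2 in control MG132 arrays and 46.1 to 46.7 in control vehicle arrays. Its lowest marker, Adgre1, lay between 5.74 and 5.82 in every group. With MG132 against vehicle, 2 of its 7 markers (Csf1r and Cd14) were higher in each line. The part of these marker shifts in the differences below was not tested. In bulk RNA, fewer cells of a type and less RNA per cell cannot be told apart.

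Promoter windows of 7 of the 8 genes were found in the RefSeq table of GRCm38.p6, each with 250 bases before and 50 after the start site. The windows of Fas and Cflar are shown because these were the members whose responses to MG132 differed between the lines. The Fas window is chr19:34290409-34290708 and the Cflar window chr1:58711241-58711540, both on the plus strand. They are written 5′ to 3′, and capitals mark matches to any motif searched.
Fas: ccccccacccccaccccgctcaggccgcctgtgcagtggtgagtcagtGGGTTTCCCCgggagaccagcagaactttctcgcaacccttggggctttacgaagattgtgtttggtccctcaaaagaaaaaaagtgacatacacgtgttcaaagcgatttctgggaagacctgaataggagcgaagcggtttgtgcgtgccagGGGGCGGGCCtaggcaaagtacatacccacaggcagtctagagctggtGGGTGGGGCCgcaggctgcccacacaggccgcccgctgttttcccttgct
Cflar: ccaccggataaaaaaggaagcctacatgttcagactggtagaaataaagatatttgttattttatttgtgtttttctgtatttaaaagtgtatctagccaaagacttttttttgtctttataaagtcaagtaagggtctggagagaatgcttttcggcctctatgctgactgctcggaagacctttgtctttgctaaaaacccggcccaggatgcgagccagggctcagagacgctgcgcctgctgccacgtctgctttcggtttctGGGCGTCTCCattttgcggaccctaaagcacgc
The matches in both windows were to a loose form of the NF-kappaB element, GGG and CC with any 5 bases between them, and both strands were read. In Fas they began 202, 48 and 0 bases before the start site, the first of them matching on either strand, and in Cflar 17 bases after it. The windows of Tnfrsf1a and Tnfrsf12a and 1 of the Xiap windows held the loose form as well, as did 50.8% of all 32851 windows. The composite C/EBP-ATF element TGATGNAAN (3.95% of all windows), the cAMP response element TGACGTCA (1.79%), the stricter NF-kappaB element (1.63%) and the heat shock element (0.603%) had no match in the windows of the members. The antioxidant element TGACNNNGC (12.4%) was matched in Casp12 and in 1 of the Xiap windows, and CCAAT (37.4%) in Casp8 and Casp12.

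**Figure D1:**
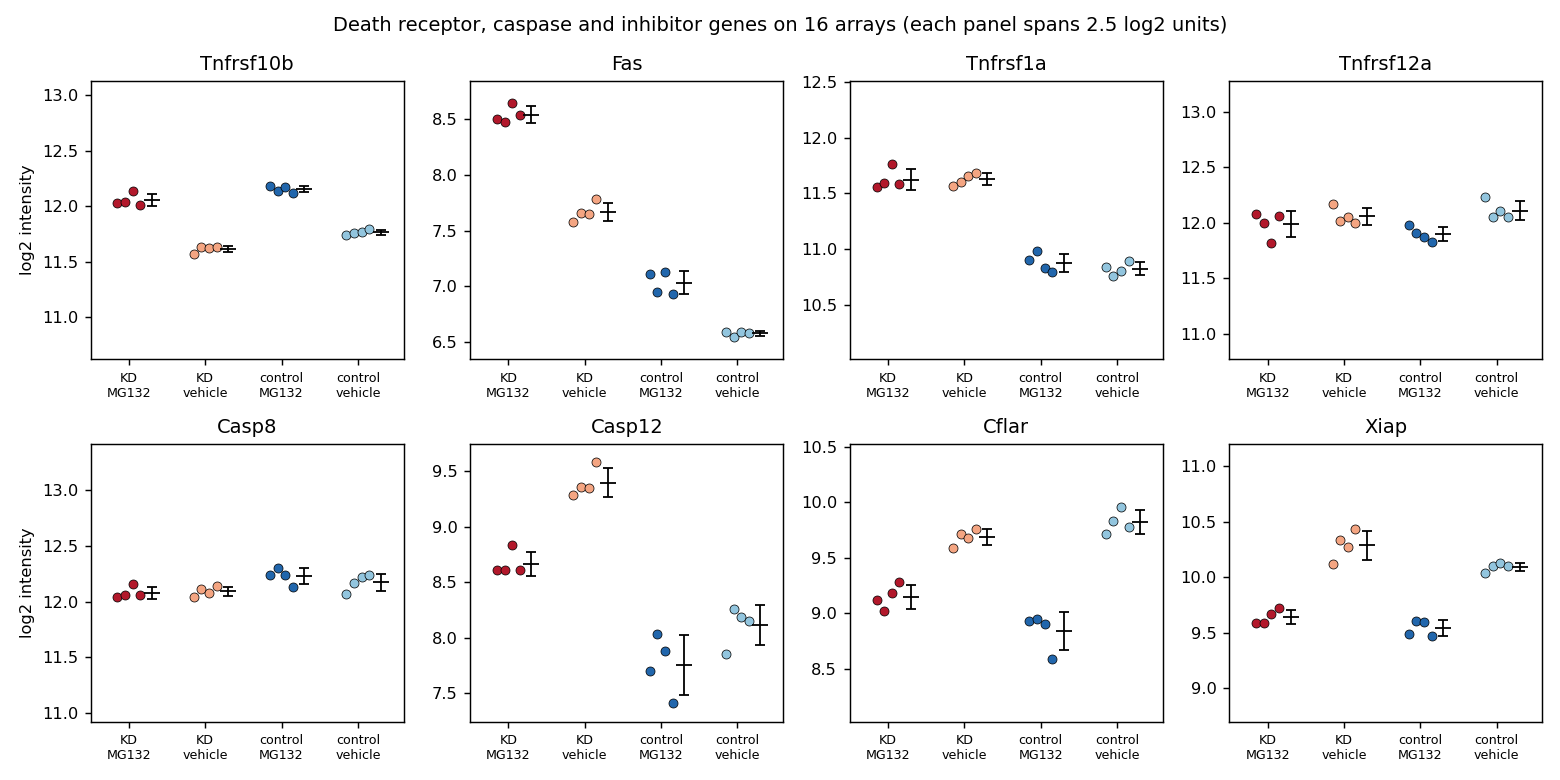
Log2 intensity of the 8 genes on 16 arrays. Each dot is 1 array, the bar beside it is the mean with SD of 4 arrays, KD stands for the Atf5-knockdown line, and each panel spans 2.5 log2 units. Tnfrsf10b and Fas are higher with MG132 in both lines, Cflar and Xiap are lower, and Tnfrsf1a is higher in KD cells.

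With MG132, the receptor genes Tnfrsf10b and Fas rose in both lines, and the inhibitor genes Cflar and Xiap fell. Other inhibitors did not all fall: of 13 other inhibitors and antagonists measured, 2 rose and 3 fell in each line, and the inhibitor gene Birc3 rose in both. Tnfrsf10b rose by 35.9% in knockdown and 30.8% in control cells, and Fas 1.83-fold in knockdown and 1.37-fold in control cells. Cflar, Xiap and Casp12 fell in both lines, Tnfrsf12a fell in control cells and did not pass in knockdown cells, and Tnfrsf1a and Casp8 did not pass in either line. In knockdown cells 5 of the 8 changed, 2 up and 3 down, where 40.7% of all genes tested were called, 16.4% up and 24.3% down. In control cells 6 of the 8 changed, 2 up and 4 down, where 35.8% of all genes were called, 16.8% up and 19.0% down. The groups did not overlap for 5 members in knockdown cells and for 5 in control cells, against 38.5% and 32.9% of all genes. The median size of the change over the 8 members was 0.489 in knockdown cells and 0.372 in control cells, beside 0.115 and 0.095 over all genes. The members were chosen with earlier results of these data known, so this contrast is a description and no test. All 8 had a mean above the 25th percentile of gene means. In a fit of the 14953 genes above it, 7979 were called in knockdown cells and 7127 in control cells. Their median signed changes were near 0 (-0.041 in knockdown and -0.08 in control cells, against 0.032 and 0.028 over all genes), with members moving in opposite directions. Both responses used their own vehicle arrays, so their mean differences share no samples. Their limma p-values are not independent, since the spread was estimated from all 16 arrays.

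Tnfrsf10b encodes the receptor for TRAIL, a ligand that kills through caspase-8. It read 12.03, 12.04, 12.14 and 12.01 in knockdown MG132 arrays, against 11.57, 11.63, 11.62 and 11.63 in knockdown vehicle arrays. In control cells it read 12.18, 12.14, 12.17 and 12.12 with MG132, against 11.74, 11.76, 11.77 and 11.79 with vehicle. Every MG132 array lay above every vehicle array of its line. The rise was 0.44 ± 0.03 in knockdown cells, a gain of 35.9% (limma adjusted p = 1.27e-08), and 0.39 ± 0.03 in control cells, a gain of 30.8% (limma adjusted p = 6.45e-08). The exact permutation p was 0.0286 in each line. The responses were apart by 0.06 ± 0.05, with a 95% interval of -0.04 to 0.15 (limma adjusted p = 0.529). With vehicle, knockdown cells lay below control cells without overlap, by -0.15 ± 0.03 (limma adjusted p = 0.00116, exact permutation p = 0.0286). With MG132 the line difference was -0.10 ± 0.03 (limma adjusted p = 0.0278), the arrays overlapped (exact permutation p = 0.0857), and the call was lost under 7 alternatives (limma adjusted p 0.0643 to 0.174): with arrays centred on their medians, with only these groups in the fit, and without control MG132 array 1 or 3 or knockdown MG132 array 1, 2 or 4.

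Fas encodes the receptor of Fas ligand and is known as a target of p53. It read 8.50, 8.48, 8.65 and 8.54 in knockdown MG132 arrays, against 7.58, 7.66, 7.65 and 7.78 in knockdown vehicle arrays. Control cells read 7.11, 6.95, 7.13 and 6.93 with MG132, against 6.59, 6.54, 6.59 and 6.58 with vehicle. The groups stood in the order knockdown MG132, knockdown vehicle, control MG132, control vehicle, with no overlap between neighbours. The control vehicle mean of Fas, 6.57, lay below 6.711, the 25th percentile of all gene means. Whether Fas reads above background in control cells was not tested, which limits the fold changes below. MG132 raised Fas 1.83-fold in knockdown cells (0.88 ± 0.05, limma adjusted p = 1.19e-09) and 1.37-fold in control cells (0.46 ± 0.05, limma adjusted p = 2.58e-06). The response of knockdown cells was larger by 0.42 ± 0.08, with a 95% interval of 0.26 to 0.58 (limma adjusted p = 0.00128). Knockdown cells held 2.85 times the Fas signal of control cells with MG132 (1.51 ± 0.05, limma adjusted p = 4.73e-13) and 2.13 times with vehicle (1.09 ± 0.05, limma adjusted p = 2.56e-11). Each of these contrasts had an exact permutation p of 0.0286, apart from the difference of the responses, where no exact test was run.

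Tnfrsf1a encodes TNF receptor 1, which signals through the adaptor TRADD to NF-kappaB or to caspase-8. It read 11.56, 11.59, 11.76 and 11.58 in knockdown MG132 arrays, against 11.57, 11.60, 11.66 and 11.68 in knockdown vehicle arrays. Values in control cells were 10.90, 10.98, 10.83 and 10.79 with MG132, against 10.84, 10.76, 10.80 and 10.89 with vehicle. All 8 knockdown arrays lay above all 8 control arrays, and within a line the treatments overlapped. The line difference was 0.75 ± 0.05 with MG132 (limma adjusted p = 2.51e-09) and 0.80 ± 0.05 with vehicle (limma adjusted p = 7.46e-10), a level 1.68 and 1.75 times that of control cells, and the exact permutation p was 0.0286 for each. The MG132 difference had 95% intervals of -0.11 to 0.10 in knockdown cells and -0.06 to 0.16 in control cells (limma adjusted p = 0.947 and 0.475).

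Tnfrsf12a encodes Fn14, the receptor of the cytokine TWEAK, which has no death domain. It read 12.08, 12, 11.82 and 12.06 in knockdown MG132 arrays, against 12.17, 12.02, 12.05 and 12 in knockdown vehicle arrays, which overlapped (12 stands for the exact value to 2 decimals). The control line read 11.98, 11.91, 11.87 and 11.83 with MG132, against 12.23, 12.05, 12.11 and 12.05 with vehicle, which did not overlap. In control cells Tnfrsf12a fell by 13.7% (-0.21 ± 0.06, limma adjusted p = 0.00881, exact permutation p = 0.0286). Without 4 arrays that an earlier analysis of these data placed toward the low end of a gradient within the groups (control vehicle 1 and 4, knockdown vehicle 1 and control MG132 4), the value was -0.16 and did not pass (limma adjusted p = 0.0903). In knockdown cells the difference was -0.07 ± 0.06 (limma adjusted p = 0.364, exact permutation p = 0.486). The responses were 0.14 ± 0.08 apart, which did not pass (limma adjusted p = 0.312). The line differences did not pass, at 0.09 ± 0.06 with MG132 and -0.05 ± 0.06 with vehicle (limma adjusted p = 0.262 and 0.584). Without knockdown MG132 array 3, the lowest of its group, the line difference with MG132 passed at 0.15 (limma adjusted p = 0.0394).

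Casp8, the initiator caspase that death receptors activate, stayed within a narrow range. It read 12.04, 12.06, 12.16 and 12.06 in knockdown MG132 arrays, against 12.04, 12.11, 12.08 and 12.14 in knockdown vehicle arrays. Among control arrays the values were 12.24, 12.30, 12.24 and 12.13 with MG132, against 12.07, 12.17, 12.22 and 12.24 with vehicle. Treatments overlapped in each line. The 95% interval of the MG132 difference was -0.11 to 0.08 in knockdown cells and -0.04 to 0.15 in control cells (limma adjusted p = 0.845 and 0.419). With MG132, knockdown cells read lower than control cells by -0.15 ± 0.05 (limma adjusted p = 0.0152), with overlap by 1 array and an exact permutation p of 0.0571. That call was lost with arrays centred on their medians and without control MG132 array 2 (limma adjusted p = 0.0654 and 0.0557). With vehicle the difference was -0.08 ± 0.05 (limma adjusted p = 0.18), and it passed without control vehicle array 1 (-0.12, limma adjusted p = 0.0479).

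Casp12 encodes a caspase associated with the endoplasmic reticulum in rodents and related in sequence to the inflammatory caspases. It read 8.61, 8.61, 8.83 and 8.61 in knockdown MG132 arrays, against 9.28, 9.36, 9.35 and 9.58 in knockdown vehicle arrays. In control cells it read 7.70, 8.03, 7.88 and 7.41 with MG132, against 7.85, 8.26, 8.19 and 8.15 with vehicle. The knockdown groups were apart from each other and from the control groups, while the control groups overlapped. In knockdown cells Casp12 fell by 39.6% (-0.73 ± 0.11, limma adjusted p = 5.18e-05, exact permutation p = 0.0286). In control cells it fell by 22.0% in the model (-0.36 ± 0.11, limma adjusted p = 0.0204), with an exact permutation p of 0.0857. That control call was lost with only these groups in the fit and without control vehicle array 2 or 3 or control MG132 array 1 or 4 (limma adjusted p 0.0517 to 0.0739), and the value was -0.24 without control MG132 array 4. The response of knockdown cells was more negative by -0.37 ± 0.16, which did not pass (limma adjusted p = 0.149). It passed without control MG132 array 4 (-0.48), with array weights (-0.38) and without the 4 arrays of the gradient (-0.41), with limma adjusted p from 0.0218 to 0.0483. Between the lines Casp12 was 1.88 times as high in knockdown cells with MG132 (0.91 ± 0.11, limma adjusted p = 4.47e-06) and 2.43 times with vehicle (1.28 ± 0.11, limma adjusted p = 6.39e-08), with an exact permutation p of 0.0286 for each.

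Cflar had the largest decrease with MG132 of the 8 genes in control cells. On the probe set with the highest mean it read 9.12, 9.02, 9.18 and 9.28 in knockdown MG132 arrays, against 9.59, 9.71, 9.68 and 9.76 in knockdown vehicle arrays. Control cells read 8.93, 8.95, 8.90 and 8.59 with MG132, against 9.71, 9.83, 9.96 and 9.78 with vehicle. MG132 and vehicle arrays were apart in both lines. Cflar fell by 31.0% in knockdown cells (-0.54 ± 0.08, limma adjusted p = 2.07e-05), and it fell by 49.2% in control cells (-0.98 ± 0.08, limma adjusted p = 2.28e-08). The exact permutation p was 0.0286 in each line. Of all genes, 99.3% had a smaller change in control cells. The response of knockdown cells was less negative by 0.44 ± 0.11, with a 95% interval of 0.21 to 0.67 (limma adjusted p = 0.0111).

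With MG132, Cflar on the probe set with the highest mean was higher in knockdown than in control cells without overlap, by 0.31 ± 0.08 (limma adjusted p = 0.00367, exact permutation p = 0.0286). With vehicle the difference was -0.14 ± 0.08 with overlap (limma adjusted p = 0.198, exact permutation p = 0.0857). This vehicle value passed with quantile normalization applied again (-0.18, limma adjusted p = 0.0448) and with the mean of the 3 probe sets (-0.20, limma adjusted p = 0.0152).

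**Figure D2:**
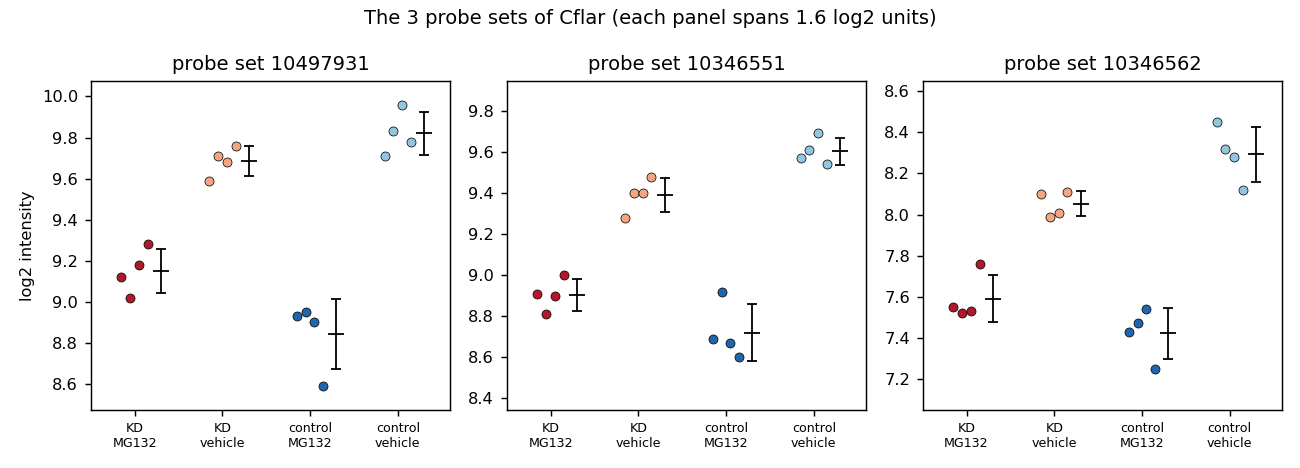
Log2 intensity of the 3 probe sets of Cflar on 16 arrays, with the mean and SD of 4 arrays beside the dots and 1.6 log2 units in each panel. KD stands for the Atf5-knockdown line. All 3 probe sets are lower with MG132 in both lines, and the gap between MG132 and vehicle is smaller in KD cells.

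The other probe sets of Cflar gave the same order of group means, as the plot of the 3 probe sets shows. In a fit with every probe set, added after seeing the data, the responses of knockdown and control cells were -0.48 ± 0.06 and -0.88 ± 0.06 on probe set 10346551, and -0.46 ± 0.07 and -0.87 ± 0.07 on probe set 10346562. On these the responses differed by 0.40 ± 0.09 and 0.41 ± 0.10 (limma adjusted p = 0.00669 and 0.014). With vehicle both read lower in knockdown cells, by -0.21 ± 0.06 and -0.24 ± 0.07 (limma adjusted p = 0.0121 and 0.0139), where the probe set used above did not pass. With MG132 the first was higher in knockdown cells (0.18 ± 0.06, limma adjusted p = 0.0283), and the second did not pass (0.17 ± 0.07, limma adjusted p = 0.086). The arrays of the lines overlapped on both. The lowest knockdown array read 8.81 and the highest control array 8.92 on the first, and 7.52 and 7.54 on the second. The sources used here do not say which isoforms each probe set reads.

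Xiap, which encodes the inhibitor of the executioner and initiator caspases of the mitochondrial pathway, fell in both lines. It read 9.59, 9.59, 9.67 and 9.72 in knockdown MG132 arrays, against 10.12, 10.33, 10.27 and 10.43 in knockdown vehicle arrays. Values in control cells were 9.49, 9.61, 9.60 and 9.47 with MG132, against 10.04, 10.10, 10.13 and 10.10 with vehicle. No MG132 array reached a vehicle array. Xiap fell by 36.1% in knockdown cells (-0.64 ± 0.06, limma adjusted p = 7.47e-08) and by 31.7% in control cells (-0.55 ± 0.06, limma adjusted p = 5.28e-07), with an exact permutation p of 0.0286 in each. The responses were apart by -0.10 ± 0.08, with a 95% interval of -0.26 to 0.07 (limma adjusted p = 0.52). With vehicle knockdown cells read higher, by 0.20 ± 0.06 (limma adjusted p = 0.00984), with overlap by 1 array and an exact permutation p of 0.0571. With MG132 the difference was 0.10 ± 0.06 (limma adjusted p = 0.195), and it passed with quantile normalization applied again (0.13, limma adjusted p = 0.0363).

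**Figure D3:**
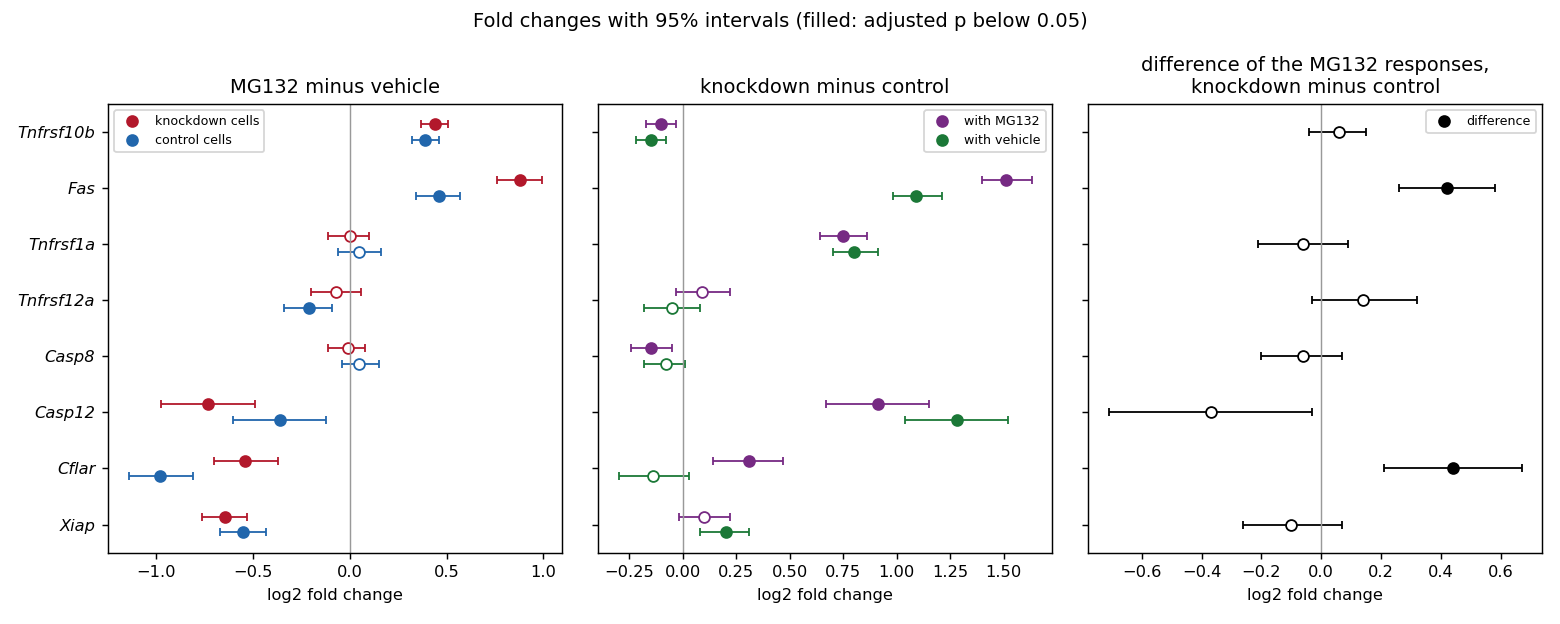
Log2 fold changes of the 8 genes with 95% intervals from limma: MG132 minus vehicle in knockdown and control cells (left), knockdown minus control with MG132 and with vehicle (middle), and the difference of the MG132 responses (right). Filled dots have an adjusted p below 0.05. Fas (0.42) and Cflar (0.44) are filled on the right, and Fas, Tnfrsf1a and Casp12 stand far above 0 in the middle.

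Between the lines the receptors Fas and Tnfrsf1a and the caspase Casp12 stood out by size. With MG132 6 of the 8 members differed, 4 higher and 2 lower in knockdown cells, where 38.1% of all genes were called, 17.7% higher and 20.3% lower. With vehicle 5 of the 8 differed, 4 higher and 1 lower, where 39.4% of all genes were called, 21.5% higher and 17.9% lower. The groups did not overlap for 4 members in each treatment, against 34.7% of all genes with MG132 and 38.7% with vehicle. The median size of the line difference was 0.227 with MG132 and 0.174 with vehicle over the members, beside 0.092 and 0.095 over all genes. This too is no test, since the members were chosen with earlier results of these data known. In the fit of the 14953 genes above the 25th percentile of gene means, 7406 were called with MG132 and 7741 with vehicle. In the difference of the responses 2 of the 8 passed, Fas and Cflar, both positive, where 14.6% of all genes were called, 4.45% with a positive value and 10.1% with a negative one. These comparisons draw on the same 16 arrays as the responses. For Fas this is a larger rise in knockdown cells and for Cflar a smaller fall, as the plot of fold changes with intervals shows.

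Over all members and groups the SD of 4 arrays ranged from 0.021 (Tnfrsf10b, control vehicle) to 0.267 (Casp12, control MG132). The genes whose values followed a member most closely across the 16 arrays were taken as the 2 with the highest Pearson r, as a description in which all arrays share lines and treatments. Fas was closest to Stk10 (r = 0.993) and Casp4 (0.992), a caspase gene, and Tnfrsf10b to Ube2o (0.989) and Maco1 (0.988). Tnfrsf1a was closest to Tapbpl (0.991) and Abcg1 (0.991), Casp12 to Rps6ka5 (0.985) and Pxmp4 (0.984), and Xiap to Ammecr1 (0.990) and Arhgap18 (0.986). Cflar was closest to Tmem60 (0.980) and Slc25a32 (0.980). Likeness was lower for the members with small changes, Casp8 (Esco1, 0.917, and Wdr48, 0.904) and Tnfrsf12a (Aprt, 0.861, and Arhgap23, 0.843).

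Tnf, Tnfsf10 (TRAIL), Fasl and Lta, the 4 ligand genes measured, did not pass in any comparison. Of 15 measured ligands and other receptors of the family, 6 rose and 2 fell with MG132 in knockdown cells, and 3 rose and 1 fell in control cells. Over all genes 16.4% rose and 24.3% fell in knockdown cells, and 16.8% rose and 19.0% fell in control cells. The median change was 0.14 in knockdown cells and 0.088 in control cells, beside 0.032 and 0.028 over all genes. Eda2r, a receptor for ectodysplasin A2, averaged 9.47 ± 0.07 with MG132 and 8.16 ± 0.15 with vehicle in knockdown cells, and 7.14 ± 0.21 with MG132 and 6.86 ± 0.13 with vehicle in control cells (SD, n = 4 each). Its rise was 2.47-fold in knockdown cells (1.30 ± 0.09, limma adjusted p = 6.48e-09) and 1.22-fold in control cells (0.29 ± 0.09, limma adjusted p = 0.0218). Like Fas, it responded more in knockdown cells, by 1.02 ± 0.13 (limma adjusted p = 7.91e-05). Its control vehicle mean was just above 6.711, the 25th percentile of all gene means, and its distance from background was not tested.

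Tnfrsf22 and Tnfrsf23 encode mouse decoy receptors for TRAIL without a working death domain, and both rose with MG132. For Tnfrsf23 the rise was 0.59 ± 0.04 in knockdown and 0.54 ± 0.04 in control cells, and the responses did not pass as different (0.05 ± 0.06, limma adjusted p = 0.682). For Tnfrsf22 it was 0.61 ± 0.03 in knockdown and 0.28 ± 0.03 in control cells, with a difference of 0.33 ± 0.05 (limma adjusted p = 0.000172). These genes and Tnfrsf26 are close copies, so their probe sets may share signal. Tnfrsf1b, which encodes TNF receptor 2, fell by 0.46 ± 0.04 in knockdown and by 0.60 ± 0.04 in control cells. Tnfrsf21, the gene of death receptor 6, went against Fas and Tnfrsf1a between the lines. It averaged 9.83 ± 0.03 in knockdown and 10.90 ± 0.04 in control cells with MG132, and 9.52 ± 0.07 in knockdown and 10.87 ± 0.06 in control cells with vehicle (SD, n = 4 each). The line differences were -1.07 ± 0.04 with MG132 and -1.35 ± 0.04 with vehicle (limma adjusted p = 1.13e-12 and 4.17e-14).

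**Figure D4:**
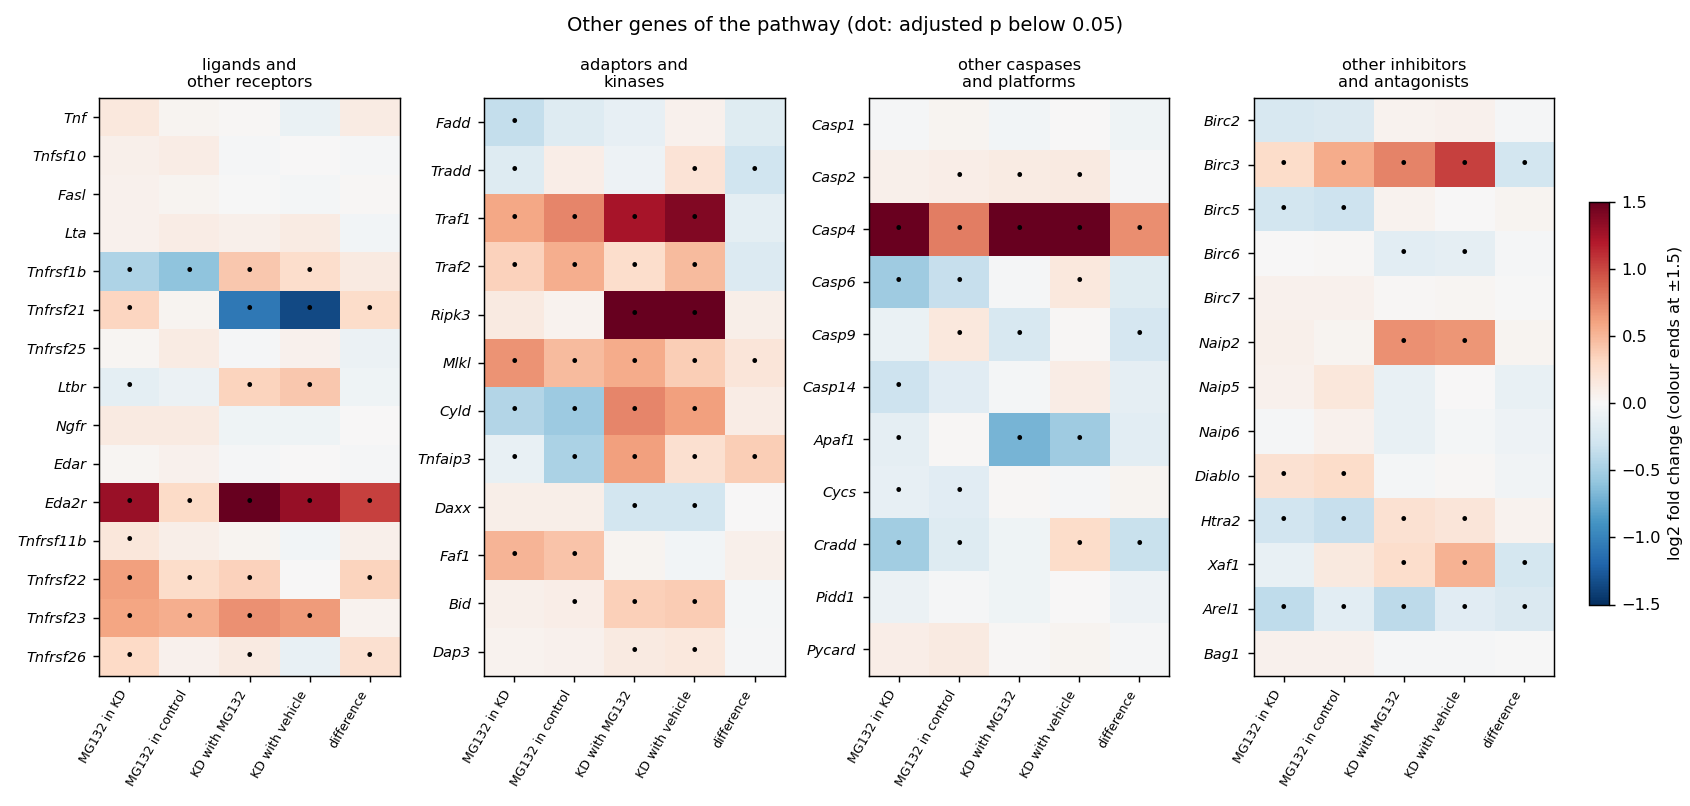
Log2 fold changes of the other pathway genes measured, in 4 lists, as colour from blue (lower) to red (higher) that ends at ±1.5. Dots mark an adjusted p below 0.05, and columns are MG132 minus vehicle in knockdown (KD) and control cells, knockdown minus control with MG132 and with vehicle, and the difference of the MG132 responses. Ripk3 and Casp4 reach the red end of the scale between the lines with MG132 and with vehicle, and Tnfrsf21 is the bluest.

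Ripk3 had the largest line difference among adaptor and kinase genes. Of 12 measured, 8 were higher and 1 lower in knockdown cells with MG132, and 9 higher and 1 lower with vehicle, where 38.1% and 39.4% of all genes were called. The median line difference was 0.31 with MG132 and 0.308 with vehicle, beside -0.002 and -0.012 over all genes. Ripk3, the kinase of necroptosis, averaged 10.89 ± 0.08 in knockdown and 7.88 ± 0.23 in control cells with MG132, and 10.75 ± 0.04 in knockdown and 7.83 ± 0.18 in control cells with vehicle (SD, n = 4 each). Its level was 8.04 times as high in knockdown cells with MG132 (3.01 ± 0.10, limma adjusted p = 1.79e-13) and 7.54 times with vehicle (2.92 ± 0.10, limma adjusted p = 1.94e-13). Mlkl, the effector that RIPK3 activates, was higher by 0.56 ± 0.04 with MG132 and 0.37 ± 0.04 with vehicle. Traf1, an adaptor known as a target of NF-kappaB, was higher by 1.24 ± 0.07 with MG132 and 1.39 ± 0.07 with vehicle. The control vehicle mean of Traf1, 6.35, lay below 6.711, the 25th percentile of all gene means.

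With MG132, 4 of the 12 adaptor and kinase genes rose and 4 fell in knockdown cells, where 40.7% of all genes were called. In control cells 5 rose and 2 fell, where 35.8% of all genes were called. The median change was 0.084 in knockdown cells and 0.096 in control cells, beside 0.032 and 0.028 over all genes. Traf1 rose by 0.58 ± 0.07 in knockdown and 0.73 ± 0.07 in control cells, and Traf2 by 0.34 ± 0.05 in knockdown and 0.55 ± 0.05 in control cells. Mlkl rose by 0.67 ± 0.04 in knockdown and 0.48 ± 0.04 in control cells. Cyld, a deubiquitinase that limits NF-kappaB signalling, fell by 0.44 ± 0.04 in knockdown and by 0.55 ± 0.04 in control cells. Tnfaip3 (A20), another such enzyme, fell by 0.11 ± 0.04 in knockdown and by 0.48 ± 0.04 in control cells, and the responses differed by 0.37 ± 0.05 (limma adjusted p = 0.000156). Tradd, the adaptor of TNF receptor 1, responded differently too, by -0.30 ± 0.08 (limma adjusted p = 0.0207): it fell by 0.19 ± 0.06 in knockdown cells, while in control cells the value was 0.10 ± 0.06 (limma adjusted p = 0.179).

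Among other caspases and their platforms, Casp4 had the largest changes. Of 11 measured, 1 rose and 5 fell with MG132 in knockdown cells, and 3 rose and 3 fell in control cells, against 40.7% and 35.8% of all genes called. The median change was -0.095 in knockdown cells and 0.022 in control cells, beside 0.032 and 0.028 over all genes. Between the lines 2 were higher and 2 lower in knockdown cells with MG132, and 4 higher and 1 lower with vehicle, counts near the 38.1% and 39.4% of all genes called. The median line difference was -0.028 with MG132 and 0.045 with vehicle, beside -0.002 and -0.012 over all genes. Casp4, in mouse the sensor of bacterial lipopolysaccharide inside the cell, averaged 9.84 ± 0.11 with MG132 and 8.36 ± 0.11 with vehicle in knockdown cells, and 7.28 ± 0.15 with MG132 and 6.51 ± 0.17 with vehicle in control cells (SD, n = 4 each). It rose 2.78-fold in knockdown cells (1.48 ± 0.09) and 1.71-fold in control cells (0.77 ± 0.09), and the responses differed by 0.70 ± 0.12 (limma adjusted p = 0.00115). Its control vehicle mean lay below 6.711, the 25th percentile of all gene means. Casp6, an executioner caspase gene, fell by 0.53 ± 0.05 in knockdown and by 0.35 ± 0.05 in control cells. Cradd, an adaptor of caspase-2, fell by 0.52 ± 0.05 in knockdown and by 0.19 ± 0.05 in control cells, a difference of -0.33 ± 0.07 (limma adjusted p = 0.00536). Casp14, a caspase of the epidermis, fell by 0.31 ± 0.07 in knockdown cells and read -0.17 ± 0.07 in control cells (limma adjusted p = 0.00096 and 0.0564). Its means with MG132, 6.66 in knockdown and 6.69 in control cells, lay below the same percentile of 6.711. Whether Casp14 reads above background was not tested. Apaf1, the scaffold of the apoptosome, was lower in knockdown than in control cells, by -0.70 ± 0.05 with MG132 and -0.53 ± 0.05 with vehicle (limma adjusted p = 3.84e-09 and 9.29e-08).

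Of 13 other inhibitors and antagonists measured, 2 rose and 3 fell with MG132 in each line, near the share of all genes called (40.7% in knockdown and 35.8% in control cells). The median change was 0.005 in knockdown cells and 0.058 in control cells, beside 0.032 and 0.028 over all genes. Birc3, which encodes the inhibitor cIAP2, rose by 0.27 ± 0.06 in knockdown and 0.56 ± 0.06 in control cells (limma adjusted p = 0.00123 and 8.11e-07), and the responses differed by -0.28 ± 0.08 (limma adjusted p = 0.0293). Birc5, the survivin gene, fell by 0.27 ± 0.03 in knockdown and by 0.31 ± 0.03 in control cells. Htra2, a mitochondrial protease that removes inhibitors of apoptosis, fell by 0.29 ± 0.04 in knockdown and by 0.34 ± 0.04 in control cells. Arel1, a ubiquitin ligase gene, fell by 0.38 ± 0.04 in knockdown and by 0.16 ± 0.04 in control cells.

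Between the lines 4 of the 13 were higher and 2 lower in knockdown cells, with MG132 as with vehicle, where 38.1% and 39.4% of all genes were called. The median line difference was 0.018 with MG132 and 0.02 with vehicle, beside -0.002 and -0.012 over all genes. Birc3 was higher by 0.74 ± 0.06 with MG132 and 1.03 ± 0.06 with vehicle. Naip2, a sensor of bacterial proteins with near-identical relatives, was higher by 0.69 ± 0.07 with MG132 and 0.66 ± 0.07 with vehicle. Its control means, 6.43 with MG132 and 6.40 with vehicle, lay below 6.711, the 25th percentile of all gene means. Xaf1, a partner of XIAP, was higher by 0.26 ± 0.06 with MG132 and 0.52 ± 0.06 with vehicle, and its responses differed by -0.26 ± 0.08 (limma adjusted p = 0.042).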

How the data were processed

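Total RNA of 16 plates was hybridised to Affymetrix whole-transcript arrays, per the labels' protocols. The deposited values are log2 intensities of probe sets to 2 decimals, which the submitters' processing notes credit to RMA and Partek without versions or settings. RMA brings the arrays to similar distributions, which would hide a change shared by most genes. The plates are not said to be separate cultures, so p-values reflect only the spread between these plates, possibly technical. Of 35556 probe sets, 21789 carried 1 symbol in the platform annotation, for 19938 genes. Symbols were checked by gene ID against RefSeq (GRCm38.p6), with 21698 matched and 0 changed.

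Group means were estimated from all 16 arrays in 1 model by lmFit and eBayes (limma 3.58.1, R 4.3.3), two-sided, with no filter and no block, after the same fit had been tested on simulated data. All 8 members would also pass a filter at a mean of 6 or at the 25th percentile. These filters use the mean over all arrays. The control vehicle mean of Fas, 6.57, was below the 25th percentile, 6.711. Exact permutation tests used scipy 1.17.1 in Python 3.11.15. The members and lists were chosen with earlier results of these data known. Named were all members, from each list up to 4 genes by MG132 response, 3 by line difference and 2 by difference of responses, and the 2 closest genes to each member. Proteins were not analysed here. Alternatives were other normalizations, filters, probe set rules, priors, weights, a block, a 1.5-fold minimum and leaving out arrays. The number of arrays limits the precision.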

Additional observations from a re-analysis of the deposited data

Results flagged for a closer look

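In 5 of the 32 combinations of a member and a group, 1 array stood far from the other 3 by Dixon's test, which chance alone gives in about 1 in 20 groups. Knockdown MG132 array 3 was the highest of its group for Tnfrsf1a (11.76), Casp8 (12.16) and Casp12 (8.83). Knockdown vehicle array 1 was low for Tnfrsf10b (11.57), and control MG132 array 4 was low for Cflar (8.59).

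The response to MG132 differed between the lines for Fas, with knockdown minus control at 0.42, and for Cflar, at 0.44, by the limma test of the difference itself.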

How the results depend on the processing

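Of 40 member results, 29 kept direction and side of the threshold under all alternatives other than the 1.5-fold minimum. The exceptions stand beside the results, except for sign changes of values near 0 that did not pass: leaving out 1 array gave an MG132 difference in knockdown cells from -0.05 to 0.02 for Tnfrsf1a, above 0 in 5 cases, and from -0.04 to 0.0033 for Casp8, above 0 in 2 cases; the cause was not tested. A 1.5-fold minimum left 3 called members for the knockdown response, 1 for the control response, 3 for the line difference with MG132, 3 with vehicle and 0 for the difference of the limma responses, where 3 had an unadjusted p under the threshold and 0 of these reached 1.5-fold. Leaving out 1 array gave 5 to 5, 5 to 6, 5 to 7, 5 to 6 and 2 to 3 called members in that order. The replicate number as a block gave 5, 6, 6, 5 and 2, as without it. Same-numbered arrays of different groups had correlations of their deviations from -0.501 to 0.396 (24 pairs, median 0.086). For arrays with different numbers these ran from -0.511 to 0.603 (72 pairs, median -0.045). Whether same-numbered arrays share a batch was not tested.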
